A study of Mus musculus with 4 samples.

Results

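The interferon regulatory factor (IRF) genes encode a family of transcription factors, and IRF2, the protein immunoprecipitated in this series, is one of them. The 8 members described are Irf1, Irf2, Irf3, Irf4, Irf5, Irf7, Irf8 and Irf9, chosen by gene symbol from 21887 protein-coding genes of the mouse RefSeq annotation (GRCm38.p6, the assembly behind mm10). No peak entered the choice, but earlier results of these data were known when it was made. For each gene the IRF2 peak nearest to either gene end was taken from each of 2 peak lists. Both lists come from chromatin immunoprecipitation and sequencing (ChIP-seq) with an anti-IRF2 antibody (Abcam ab124744) on stem cells of the small intestine from Lgr5-EGFP-Ires-CreERT2 mice, in which a cassette at Lgr5, the stem cell marker, carries a fluorescent protein and a tamoxifen-inducible Cre. The design text speaks of 5 mice and does not say how they were divided among samples. No treatment, age or sex is given, and the mice that carry the cassette form the single group, with no wild-type or IRF2-deficient control. Replicate 1 is the IRF2 library whose title names Takara, and replicate 2 the one whose title names Tokyo. The 2 input libraries of the series were not analysed here. Peak lists hold no expression values, so the cell type could not be checked by markers. Of 18 marker genes of stem, Paneth, T, B and macrophage cells, 0 had a peak midpoint within 5000 bp of an end, and since only 1.43% of all protein-coding genes had one in either library, this count does not set the markers apart.

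IRF proteins share a DNA-binding domain that recognises repeats of the tetranucleotide GAAA, the core of the interferon-stimulated response element. IRF1 is an activator induced by interferons, and IRF2 is known as its antagonist on the same elements, although it can also activate. IRF3, IRF5 and IRF7 are switched on downstream of sensors of microbial nucleic acids and carry the first interferon response, IRF9 is the DNA-binding subunit of the complex ISGF3 that acts below the type I interferon receptor, and IRF4 and IRF8 are known from lymphoid and myeloid cells.

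The site that carries the result is the promoter of Irf2. The sequence printed here is the RefSeq promoter window of Irf2 (GRCm38.p6, chr8:46739495-46739794, plus strand), which runs from 250 bases before the annotated transcription start to 50 bases from it on. It is shown because peaks of both libraries cover all or most of it. Capitals mark the single match to the IRF motif, read here as GAAA, then 2 bases of any kind, then GAAA again.
Irf2 promoter: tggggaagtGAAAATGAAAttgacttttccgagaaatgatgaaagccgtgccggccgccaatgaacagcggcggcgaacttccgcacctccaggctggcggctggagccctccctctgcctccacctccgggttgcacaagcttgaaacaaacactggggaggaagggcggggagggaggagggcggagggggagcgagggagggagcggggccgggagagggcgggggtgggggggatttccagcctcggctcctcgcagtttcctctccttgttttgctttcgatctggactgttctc
The match lies on the plus strand at positions 46739504 to 46739513, which is 241 to 232 bp before the Irf2 start. The motif was found in 1131 of 32851 promoter windows of the same length (3.44%, either strand), and Irf2 was the single IRF gene among the 8 with a match in any of its windows (1 of 11 windows).

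Irf2 had a peak in both libraries, and none of the other 7 genes had one within 5000 bp of an end in either. That is 1 of 8 members in replicate 1, where 0.795% of all protein-coding genes had such a peak, and 1 of 8 in replicate 2, where the share was 0.804%. Counted over either library the background was 1.43% of genes, and 0.164% of genes (36) had a peak in both. A count of 1 among 8 genes selected with earlier results of these data known was not tested. In a list without read depth, the lack of a peak says only that none was called.

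At Irf2 (chromosome 8, 46739745 to 46847458, plus strand), replicate 1 had an interval of 1609 bp at 46739085 to 46740693, with its summit at 46739488. Replicate 2 had an interval of 623 bp at 46739088 to 46739710, with its summit at 46739424. The replicate 2 interval lay wholly inside that of replicate 1. The low-coordinate edges were 3 bp apart, while the high-coordinate edges were 983 bp apart. Shared sequence therefore made up 100% of the replicate 2 interval and 38.7% of the replicate 1 interval. The replicate 1 interval covered the Irf2 start and went on for 948 bp into the gene, whereas the replicate 2 interval ended 35 bp before the start. Midpoints, which were used for all distances to genes, were 144 bp inside the gene in replicate 1 and 346 bp before it in replicate 2, and so differed by 490 bp. The summits were closer to each other, at 257 and 321 bp before the start, a gap of 64 bp. In replicate 1 the summit sat at 25% of the width of the interval, near its upstream side, and in replicate 2 at 53.9%.

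Both summits lay upstream of the IRF motif match, 16 bp from it in replicate 1 and 80 bp from it in replicate 2, and both intervals contained it. The summits themselves and the upstream part of both peaks lay outside the Irf2 promoter window. The sequence around the replicate 2 summit was not searched, so a match nearer to that summit is possible. A second transcript starts beside the match. Gm16675, annotated as a long non-coding RNA on the opposite strand (46730970 to 46739515), begins 230 bp from the Irf2 start, so the pair is divergent. Its start was inside both intervals, 27 bp from the replicate 1 summit and 91 bp from that of replicate 2, and the motif match lay 2 to 11 bp inside its transcribed part. In both libraries the summit was thus nearer to the Gm16675 start than to the Irf2 start. The promoter window of Gm16675, searched in the same way, contained the replicate 1 summit and held no match but the one already named. Which of the promoters the immunoprecipitated protein belongs to cannot be told apart from peak positions.

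**Figure D1:**
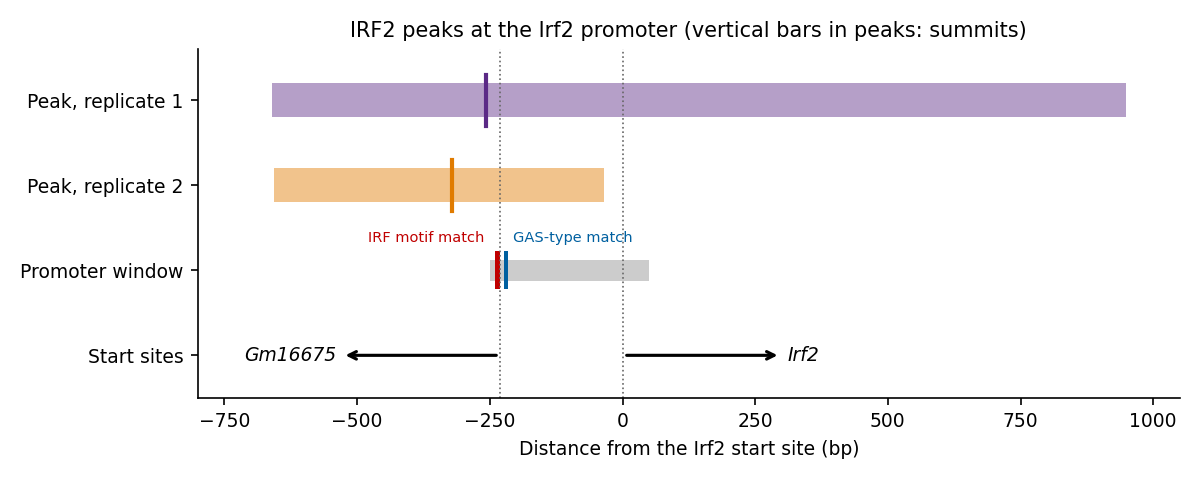
Peak intervals (bars) and summits (vertical lines) of both IRF2 libraries, with the promoter window, the motif matches and the start sites, against distance in bp from the Irf2 start. The intervals begin 660 and 657 bp before the start, and only that of replicate 1 crosses it.

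The authors' summit value, a whole number of unstated unit deposited with each peak, was 37 for the Irf2 peak in replicate 1, in a list that ran from 13 to 169 with a median of 22.5. It ranked 77 of 380, tied with the other peaks at that value (6 in all). In replicate 2 the value was 21, in a list from 10 to 80 with a median of 14, and the rank was 21 of 238 (8 peaks at that value). So 20% of the replicate 1 peaks and 8.4% of the replicate 2 peaks had higher values. The replicate 1 interval was among the wider ones of its list, with 13 of 380 peaks wider and a median of 524.5 bp. The replicate 2 interval had 72 of 238 peaks wider, and the median there was 545 bp. The next peak on the chromosome was 7.31 Mb away in each library, at a site 108 to 109 kb from Msr1 that both lists hold.

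The libraries overlapped by at least 1 bp at 56 pairs of peaks, formed by 55 replicate 1 and 54 replicate 2 peaks. By the mean of both ranks (49) the Irf2 pair was at place 27 of these, between pairs at Mov10, an RNA helicase (48, region midpoint 644.5 bp from a gene end), and H2-Q4, an MHC class I gene (50.5, 321.5 bp). The pairs one place farther out lay far from protein-coding genes, at 139179 bp from Noct (48) and 86367.5 bp from Atp6ap1l (51.5), the nearest in each case. Its replicate 2 value was high among the pairs, with 12 higher and 39 lower, and its replicate 1 value was low, with 41 higher and 13 lower. The ratio of the replicate 1 to the replicate 2 value was 1.76 at Irf2 and had a median of 3.07 over the pairs, a comparison that carries the unknown depth and scale of each list. Summits of the Irf2 pair were about as close as those of other pairs (64 bp against a median of 80 bp, range 0 to 678). Of the 56 pairs, 12 had summits exactly 64 bp apart, and most summits fall on a grid of 16 bp. The midpoint gap of 490 bp was exceeded by 4 pairs, and the median was 103 bp. The low-edge gap of 3 bp was the smallest of the 56 (median 177.5 bp). With 38.7% of its wider interval shared, the Irf2 pair was not among the 35 pairs in which each peak covered 50% of the other. The intervals at Irf2 thus coincided at the upstream edge and, within 64 bp, at the summit, and did not coincide downstream.

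**Figure D2:**
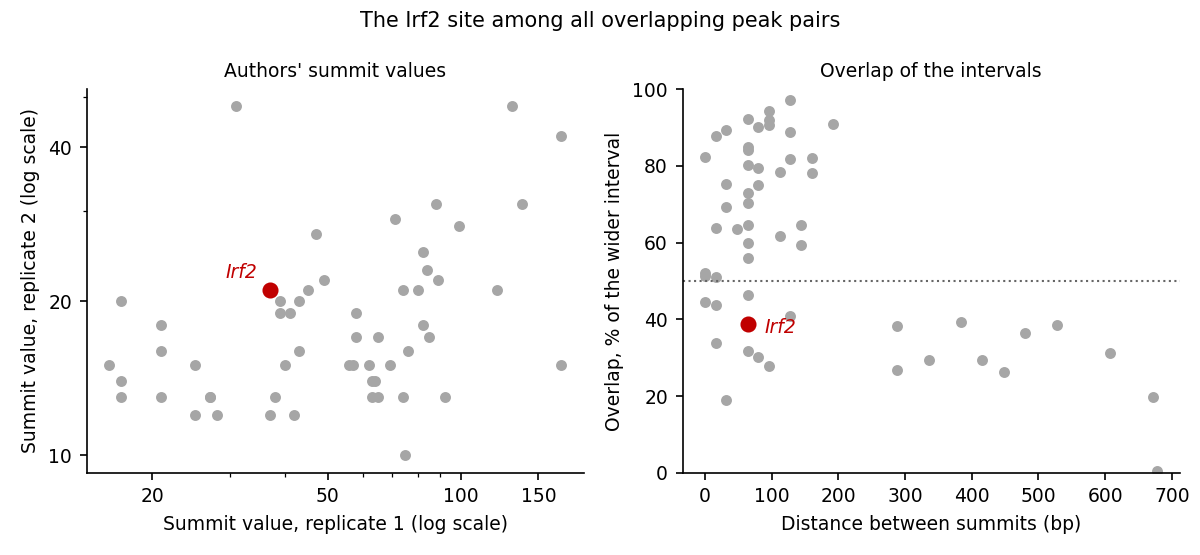
All 56 overlapping pairs of peaks as points, Irf2 in red. Left, the authors' summit values of replicate 1 against replicate 2 on log axes, with Irf2 at 37 and 21; right, the overlap as a percentage of the wider interval against the distance between summits in bp, with the dotted line at 50% and Irf2 at 38.7% and 64 bp.

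The motif match can be set beside promoters under other peaks. A replicate 1 peak overlapped 73 promoter windows, 23 of which held the motif (31.5%). A replicate 2 peak overlapped 86, and 10 of those held it (11.6%). Under peaks of both libraries there were 25 windows, 9 with the motif (36%), at 8 separate places. Irf2 and Gm16675 were 2 of the 9 windows and share 1 match. The bases between the GAAA repeats differed among these sites. The match was GAAAATGAAA at Irf2 and GAAAGTGAAA at Rbck1, which encodes a subunit of the linear ubiquitin ligase, and at Erap1, a peptide-trimming enzyme of the endoplasmic reticulum, and GAAACCGAAA at Ddx60, a helicase of antiviral defence. Socs1, a suppressor of cytokine signalling, held GAAACCGAAA and an overlapping GAAAGAGAAA. Over the 10 matches under peaks of both libraries, the gap between match and summit ran from 2 to 344 bp in replicate 1 and from 60 to 248 bp in replicate 2, and the 16 and 80 bp at Irf2 lay within these ranges. The gap was 14 and 78 bp at Erap1 and 21 and 98 bp at Rbck1. It was wider at Tasor2, with 344 and 248 bp, and at the farther of the Ddx60 matches, with 85 and 197 bp. Most promoters with the motif had no peak: 2.03% of the 1131 windows were under a replicate 1 peak and 0.884% under one of replicate 2. The longer form, with GAAA 3 times at the same spacing, was absent from the IRF windows and present in 0.116% of all windows. Under peaks it was in 6.85% of windows for replicate 1, 1.16% for replicate 2 and 4% (1 of 25) for both. The overlapping Socs1 matches together make this form. The looser core AANNGAAA, in 23.9% of all windows, matched in Irf2 alone among the IRF genes, at 2 overlapping positions that together span the motif match.

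Next to the IRF motif, the Irf2 promoter held a match to TTCNNNGAA, the spacing of the gamma-activated site (GAS) that STAT dimers bind, and so did the promoters of Irf1 and Irf8. This search was chosen after the sequences were seen. The stretches are printed to compare the genes around that match, which is in capitals (all plus strand, GRCm38.p6: chr8:46739506-46739544, chr11:53769909-53769947 and chr8:120736172-120736210).
Irf2: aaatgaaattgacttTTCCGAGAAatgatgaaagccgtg
Irf1: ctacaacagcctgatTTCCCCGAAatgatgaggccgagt
Irf8: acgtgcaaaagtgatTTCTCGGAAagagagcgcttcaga
The match began 224 bp before the start in Irf2, 90 bp in Irf1 and 171 bp in Irf8, where a further match followed at 153 bp. TTCNNNGAA, which reads the same on both strands, was present in 8.3% of all 32851 windows, and in 3 of the 11 IRF windows. Under peaks it was in 11% of windows for replicate 1, 6.98% for replicate 2 and 16% (4 of 25) for both. Over the 39 bases, Irf1 and Irf2 were identical at 19, Irf1 and Irf8 at 17 and Irf2 and Irf8 at 16. These totals include the fixed bases of the match, which the search makes identical in every pair. Over the 30 bases outside the match, the counts in the same order were 12, 10 and 10. In the 15 bases after the match, Irf1 and Irf2 had 8 in common, Irf1 and Irf8 had 5, and Irf2 and Irf8 had 3. Before the match the order was the reverse, with Irf2 and Irf8 sharing the most bases and Irf1 and Irf2 the fewest. Of the 3 promoters, that of Irf2 alone was under a peak.

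Irf1, the activator that competes with IRF2 for the same elements (chromosome 11, 53770014 to 53778374, plus strand), had its nearest replicate 1 peak 81 kb beyond its high-coordinate end, at 53859049 to 53859697. This peak had a summit value of 40, rank 64 of 380, higher than the value at Irf2 in the same list. Among protein-coding genes it was nearest to Slc22a5, a carnitine transporter, at 5169 bp from an end, and none of them contained its midpoint. The nearest replicate 2 peak was 1.01 Mb away on the other side, 194 bp inside Fstl4, with a value of 13 (rank 137 of 238). The libraries thus named different sites on opposite sides of Irf1.

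Among the factors activated below nucleic acid sensing, Irf3 (chromosome 7, 44997648 to 45002848) lay 134 kb from a replicate 1 peak, with a summit value of 24 (rank 161). That peak was 39 bp from an end of Flt3l, the gene of a cytokine for dendritic cells. In replicate 2 the nearest peak was 14.4 Mb away, near Cox6b1 (value 11, rank 221). Irf3 lies 10 bp from its neighbour Bcl2l12, and no peak was called in that interval. Irf5 (chromosome 6, 29526130 to 29541869) had its nearest peaks at 1.68 Mb in replicate 1 (value 16, rank 343) and 2.12 Mb in replicate 2 (value 12, rank 187), both on the high-coordinate side, the first nearest to Mkln1 and the second to Podxl. Irf7 (chromosome 7, 141263183 to 141266499, minus strand) had them at 5.73 Mb, beside Clrn3 (value 25, rank 148), and at 13.5 Mb, beside Setd1a (value 15, rank 77). None of these distances places a peak at the gene, and none of the sites coincided between the libraries.

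Irf9, the DNA-binding part of ISGF3 (chromosome 14, 55603985 to 55610030, plus strand), was the next nearest after Irf2 in replicate 1. Its nearest peak was 13.3 kb before the gene, at 55590221 to 55591166, with a summit value of 39 (rank 67). The peak was 407.5 bp from an end of Psme2, and Rnf31, of the linear ubiquitin ligase, lies between Psme2 and Irf9, 311 bp from Irf9. A further pair of replicate 1 peaks followed at 24.5 and 25.4 kb, with values of 19 and 22, both nearest to Psme1. Psme1 and Psme2 encode the PA28 activator of the proteasome. In replicate 2 the cluster had no peak, and the nearest was 1.28 Mb away near Zmym2 (value 13, rank 137). Irf9 was the single member with more than 1 peak of the same list within 500 kb.

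For the lymphoid and myeloid members the libraries differed in which peak came nearest. Irf4 (chromosome 13, 30749233 to 30766981) had its nearest peaks at 6.8 Mb in replicate 1, beside Scgn (value 20, rank 230), and at 1.79 Mb in replicate 2, near Sox4 (value 13, rank 137). Irf8 (chromosome 8, 120736358 to 120756694) lay 250 kb from a replicate 2 peak inside Gse1 (value 13, rank 137). In replicate 1 its nearest peak was 14.8 Mb away, at the immunoproteasome gene Psmb10 (value 27, rank 137 of 380). The values of the nearest replicate 2 peaks of Irf1, Irf4, Irf8 and Irf9 were all 13, a value that 50 of its 238 peaks had.

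The order of the genes by distance differed between the lists beyond Irf2. In replicate 1 it was Irf2, Irf9, Irf1, Irf3, Irf5, Irf7, Irf4 and Irf8, and in replicate 2 Irf2, Irf8, Irf1, Irf9, Irf4, Irf5, Irf7 and Irf3. Over all genes, 0.0685% had a replicate 1 peak nearer than Irf2 and 0.268% a replicate 2 peak. For Irf9 the shares were 1.32% and 28.8%, for Irf1 4.47% and 24.7%, for Irf3 6.48% and 89.6%, and for Irf8 92.2% and 8.97%. Irf5 was near the middle of all genes in both lists (40.5% and 39.6%), and Irf7 was among the far ones in both (74.3% and 88.3%). For Irf4 the shares were 78.3% and 35.6%. The median distance of the 8 genes was 905 kb in replicate 1 and 1530 kb in replicate 2, against 2360 and 3110 kb over all genes with a peak on their chromosome. In the higher-scored 50% of each list the members' medians were 2450 and 9440 kb, against 4310 and 6250 kb over all genes, so in replicate 2 the members' median went from below to above that of all genes. The replicate 2 cut fell among peaks tied at a value of 14, of which some were kept by order of chromosome and position. Whether the change depends on that order was not tested.

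**Figure D3:**
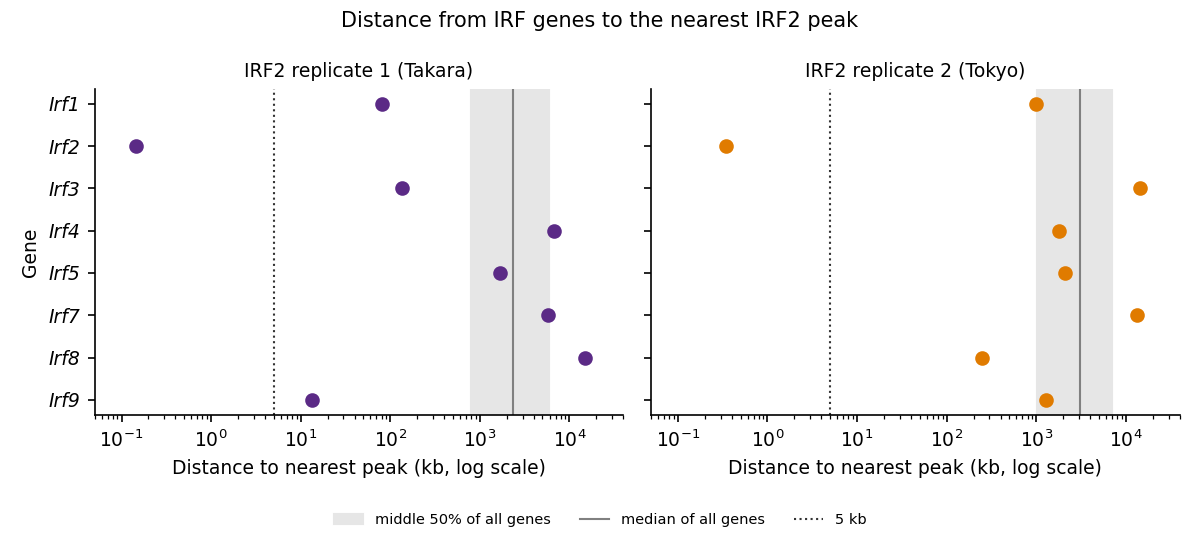
Distance in kb (log scale) from each IRF gene to the nearest peak midpoint of each library, with the median and the middle 50% of all protein-coding genes in grey and 5 kb dotted. Irf2 sits at 0.144 and 0.346 kb, and the other 7 genes at 13.3 kb or more in replicate 1 and 250 kb or more in replicate 2.

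The other genes of the pathway were taken as 53 genes in 7 lists: interferons, their receptors, JAK and STAT proteins, sensors, the adaptors and kinases that activate IRF3, IRF5 and IRF7, cofactors and partners of IRF proteins, and negative regulators. A peak lay within 5000 bp of an end of 4 of 53 in replicate 1 (7.55%), of 3 of 53 in replicate 2 (5.66%) and of 2 in both (3.77%), where the shares over all genes were 0.795%, 0.804% and 0.164%. In either library it was 5 of 53 (9.43%), against 1.43% of all genes. The genes with peaks of both libraries were Tbk1, the kinase that phosphorylates IRF3, and Socs1. Midpoints at Socs1 were 117 and 269 bp from its end, with summit values of 58 and 17. At Tbk1 they were 310 and 207.5 bp away, with values of 43 and 20. The replicate 1 peak at Tbk1 was nearer to its neighbour Xpot, at 276 bp. Ifih1, the RNA sensor MDA5, had a replicate 1 peak alone (value 31, 137.5 bp inside the gene), and Ticam1, the adaptor TRIF, a replicate 2 peak alone at 3103 bp (value 13), which was nearer to Plin3. No peak lay within 5000 bp of an end of any of the 7 interferon genes, 6 receptor genes or 10 cofactor genes. With 1.43% of all genes having one in either library, this does not set those genes apart. Of 44 pathway genes with a RefSeq promoter window, 7 held the IRF motif (15.9%), against 1079 of 27025 genes with a window (3.99%). Ifih1 and Socs1 were those of the 7 with a peak, and the others were Ifna4, Stat2, Ddx58, Myd88 and Trim21.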

How the data were processed

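Per the submitters' processing notes, BWA 0.7.12 and MACS were used on build mm10. The sources used here do not state peak-calling thresholds, filters or sequencing depth. Every library was called by itself, per the file headers, with tracks of intervals and summits. The score deposited by the authors with each summit has no stated unit and served only to describe and rank peaks within a list, apart from the overlapping pairs, where both values are set side by side. The replicate 2 deposit also holds a copy of the 380 replicate 1 summits and intervals, which was not counted again.

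The labels do not say whether the libraries came from separate mice. Genes, starts and promoter windows came from RefSeq tables of GRCm38.p6, with 8 of 8 members matched by symbol. Some items, a further family member among them, are not reported here. Distances run from the peak midpoint to the nearer gene end (Python 3.11.15). The gene nearest to a peak was sought among protein-coding genes only. Interval starts were converted to 1-based positions and summits were kept as deposited. Motifs were sought on both strands. Both searches were tested on simulated data. No significance test was made. The members, lists and settings were chosen with earlier results of these data known. Named were all members, the genes nearest to their peaks, pathway genes with a peak and the pairs next in rank to Irf2. The other motif sites were picked after their values were seen.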

Additional observations from a re-analysis of the deposited data

How the results depend on the processing

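Irf2 was the single member with a peak near an end, in both libraries, within 1000 bp, from summits or interval edges, with the higher-scored 50% of each list, with either library left out (1 to 1 members) and, in an alternative chosen after seeing the data, from RefSeq start sites. With 25000 bp, 2 members had one, Irf9 being added by replicate 1. The Irf2 overlap of 623 bp was 437 bp between windows of 250 bp on each side of the summits, and fell to 0 under a reciprocal overlap of 50%. In the higher-scored 50%, which holds fewer peaks, the members' median distance was 2450 kb in replicate 1 and 9440 kb in replicate 2, and that of all genes 4310 and 6250 kb. Peaks tied at the cut in replicate 2 were split by order of chromosome and position. The pathway count of 5 in either library was 4 within 1000 bp, 7 within 25000 bp (with Irf2bp1 and Stat3 added), 3 in the higher-scored 50%, 5 from summits or interval edges, and 3 without replicate 1 and 4 without replicate 2. With the triple repeat, 0 IRF promoters matched. No paired analysis was possible because a single group, the IRF2 libraries, entered the comparisons. Read depth is unknown, so what it limits cannot be given as a number.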
